A study of Mus musculus with 20 samples.

Results

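The genes described here make, store and break down triglyceride, and 10 of the 24411 genes in the count table were taken by name: *Mogat1*, *Mogat2*, *Dgat1*, *Dgat2*, *Gpam*, *Lpin1*, *Plin2*, *Plin5*, *Pnpla2* and *Lpl*. *Mogat2* was chosen by its lower level in mutant kidneys of these same mice, so its differences between mutants and controls are given as a description without a test. The other 9 genes were chosen for what they do, with earlier results of these data known, and were tested. All 10 passed the filter on low counts in each comparison.

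The kidneys came from 20 mice on a C57BL/6 background, 5 in each of 4 groups: male controls (MC1 to MC5), male mutants (MM1 to MM5), female controls (FC1 to FC5) and female mutants (FM1 to FM5). Mutants were *Pkd2* fl/fl; *Pax8* rtTA; *TetO* Cre, in which the *Pax8* promoter drives the doxycycline-dependent activator in tubule cells, and doxycycline then switches on the Cre that deletes *Pkd2*. Controls were littermates that lacked *Pax8* rtTA or *TetO* Cre and received the same doxycycline (DOX), 50 mg/kg i.p. daily from P27 to P29. Whole kidneys were taken at P125, 1 library per mouse, from 3 litters called A, B and C.

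Library totals ranged from 11307741 to 19324073 counts, with a median of 15813304.5. The library of FM4 had the lowest total and the fewest genes with a count (14850 against 16776 to 17724 in the others). As a check of the labels, *Pkd2* was between 93.4 and 181 CPM (counts scaled to the TMM-normalized library size) in mutants and between 193 and 332 CPM in controls, with no overlap. Summed markers of proximal tubule ranged from 7538 to 14694 CPM in mutants and from 12055 to 15187 CPM in controls, while those of macrophages ranged from 124 to 452 CPM in mutants and from 95.1 to 154 CPM in controls. In whole kidney RNA, fewer cells of a type and less RNA per cell cannot be told apart.

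Triglyceride is built by adding fatty acids to a glycerol backbone. The glycerol phosphate route starts with *Gpam* and passes through the phosphatase *Lpin1*, whereas the monoacylglycerol route uses *Mogat1* or *Mogat2*, and both end with *Dgat1* or *Dgat2*. The product is kept in lipid droplets coated by perilipins such as *Plin2* and *Plin5* and is opened by the lipase *Pnpla2*, while *Lpl* releases fatty acids from circulating lipoproteins. Proximal tubule cells burn fatty acids as their main fuel.

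Windows of 250 bases before a RefSeq start (build GRCm38.p6) were at hand for 6 of the 10 genes: *Mogat1*, *Plin2*, *Pnpla2*, *Lpin1*, *Plin5* and *Gpam*. Those of *Mogat1* (chr1:78510810-78511059, plus strand), which differed most between the sexes, *Lpin1* (chr12:16610967-16611216, minus strand), which also differed between the sexes, and *Pnpla2* (chr7:141454938-141455187, plus strand), which differed between mutants and controls, are shown 5′ to 3′. Capitals mark a match, on either strand, to AGGTCA (a nuclear receptor half-site) or AGAACA (a steroid receptor half-site).
Mogat1: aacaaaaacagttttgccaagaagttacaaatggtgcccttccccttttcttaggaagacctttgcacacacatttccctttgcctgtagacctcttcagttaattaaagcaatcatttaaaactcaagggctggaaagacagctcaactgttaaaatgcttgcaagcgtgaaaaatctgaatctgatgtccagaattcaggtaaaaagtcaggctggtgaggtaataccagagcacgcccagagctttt
Lpin1: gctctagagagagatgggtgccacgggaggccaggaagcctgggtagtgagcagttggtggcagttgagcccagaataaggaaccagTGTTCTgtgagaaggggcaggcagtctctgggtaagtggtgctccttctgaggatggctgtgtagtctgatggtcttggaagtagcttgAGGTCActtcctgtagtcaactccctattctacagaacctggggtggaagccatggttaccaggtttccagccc
Pnpla2: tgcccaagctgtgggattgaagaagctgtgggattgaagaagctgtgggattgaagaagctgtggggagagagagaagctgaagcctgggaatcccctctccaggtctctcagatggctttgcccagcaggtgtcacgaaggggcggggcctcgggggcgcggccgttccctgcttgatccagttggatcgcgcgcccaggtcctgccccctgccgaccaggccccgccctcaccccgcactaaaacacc
The *Lpin1* window held both motifs, at 163 and 74 bases before the start, and the *Mogat1* and *Pnpla2* windows held neither. Of 32851 mouse windows of this length, 14.0% held AGGTCA and 16.1% held AGAACA. A match of letters does not show a bound receptor. The *Lpin1* window lies within the RefSeq span of the gene (chr12:16535669-16653903), so it precedes an internal start and not the outermost one.

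*Mogat2* had the lowest level per kb of exon of the synthesis enzymes in mutants, where its mean was 71.9% below that of controls in males and 69.5% below in females. It is the monoacylglycerol acyltransferase best known from the small intestine, where it rebuilds absorbed dietary fat, and it lies on the minus strand at chr7:99219084-99238611 (mm10). In male controls it was at 10.9, 13.1, 10.6, 14.5 and 10.2 CPM (MC1 to MC5), and in male mutants at 2.38, 4.38, 2.29, 2.51 and 5.12 CPM (MM1 to MM5). In female controls it was at 12.2, 13.1, 10.1, 10.7 and 17.7 CPM (FC1 to FC5), and in female mutants at 6.13, 2.76, 2.05, 3.17 and 5.34 CPM (FM1 to FM5). All 10 mutants lay below all 10 controls, and the highest mutant, FM1, was well short of the lowest control, FC3. The fitted log2 difference was −1.81 with all mice, −1.85 in males and −1.76 in females. By litter and sex it was lower in mutants in 6 of 6 strata, with log2 differences from −2.54 to −0.98, and the smallest of these was that of the single male pair in litter C.

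**Figure D1:**
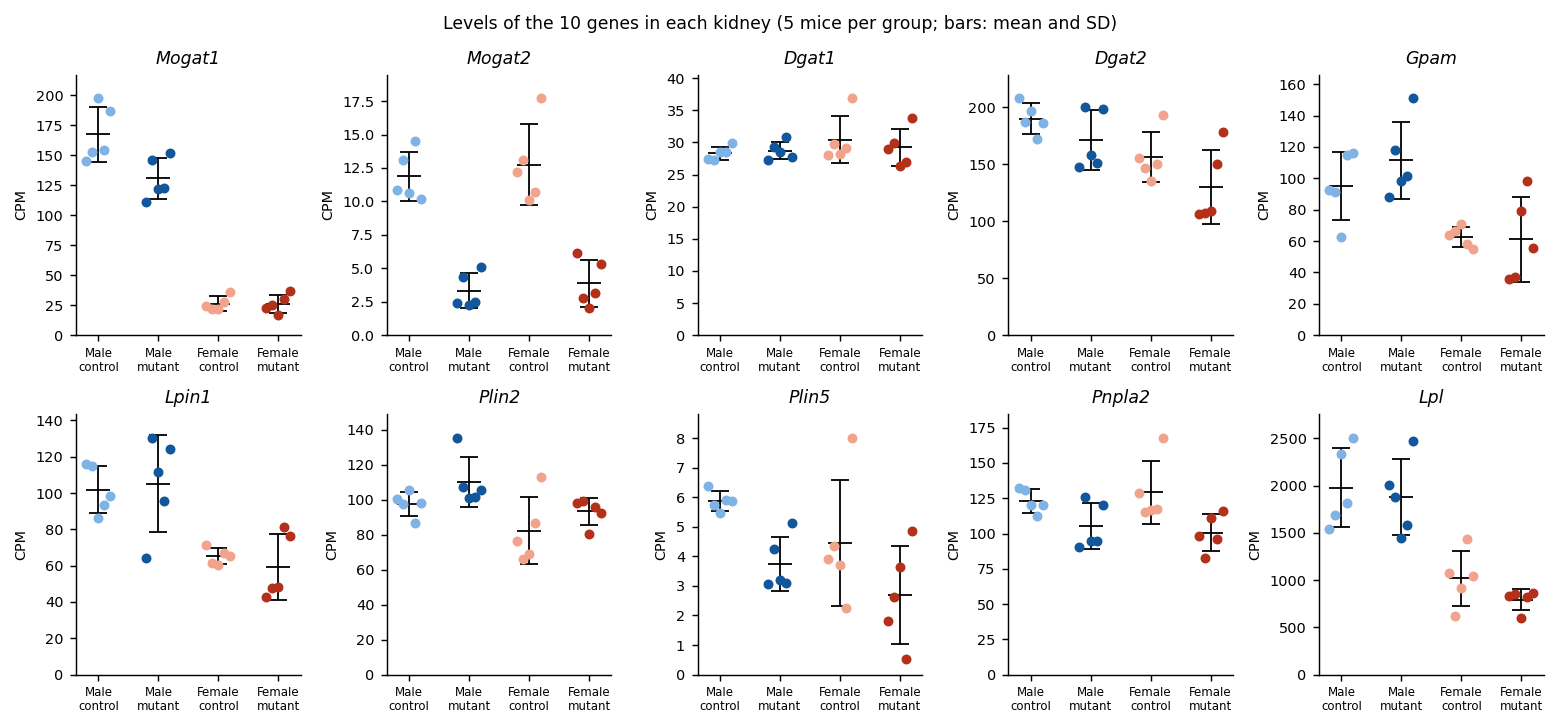
CPM (vertical axis, from 0) of each of the 10 genes in every mouse, with 5 points per group and black bars for the mean and SD. *Mogat2* is separated by genotype in both sexes, *Mogat1* and *Lpl* are separated by sex, and *Dgat1* stays between 26.4 and 36.9 CPM in all 20 mice.

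Summed markers of proximal tubule were lower in some mutants than in controls of the same sex, and their part in the low *Mogat2* was not tested. Their summed level in male mutants (MM1 to MM5) was 9783, 14039, 12185, 11967 and 14694 CPM, against 14440 to 15187 CPM in male controls, so that all but MM5 were below every male control. In female mutants (FM1 to FM5) it was 8351, 8973, 7538, 13950 and 13292 CPM, against 12055 to 13592 CPM in female controls. FM5 lay within the female control range and FM4 above it, and the other 3 were below it. With all mice, 2 of the 10 markers were called lower in mutants (edgeR, adjusted p under 0.01), beside 15.9% of all genes in either direction. The 10 markers had a median log2 fold change of −0.19, against −0.01 for all genes tested. Single markers differed. Mean *Lrp2* was 2441 CPM in male controls and 2534 CPM in male mutants, and 3078 and 2583 CPM in females. Mean *Miox* was 1996 and 1013 CPM in males, and 1947 and 1137 CPM in females. Markers of other nephron parts were also called lower: 3 of 3 for loop and distal tubule (median −0.73) and 3 of 3 for podocytes (−0.62). For collecting duct 2 of 3 were called lower (−0.38). The part of these in the low *Mogat2* was not tested either. Among all genes tested, those whose log2 CPM was most like that of *Mogat2* over the 20 mice were *Adck3* (Pearson r = 0.936), *Miox* (0.926), *Cwh43* (0.925), *Ndrg2* (0.925) and *Dusp15* (0.917). *Miox*, an inositol oxygenase of proximal tubule cells, is itself in the marker list. These r values include the difference between genotypes, and after subtraction of the group means they lay between 0.704 and 0.770. Among the 9 other genes of the set the most alike was *Pnpla2* (r = 0.751, or 0.544 after subtraction of the group means).

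**Figure D2:**
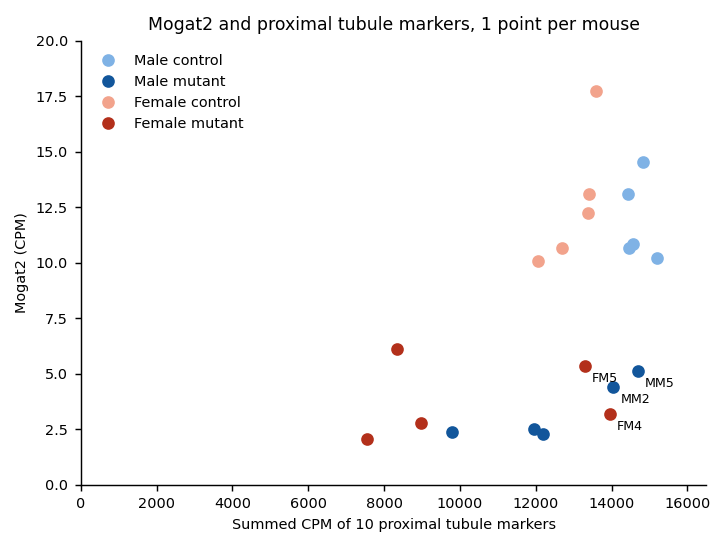
*Mogat2* (CPM, vertical axis) against the summed CPM of 10 proximal tubule markers (horizontal axis), 1 point per mouse. Mutants have marker sums from 7538 to 14694 CPM and controls from 12055 to 15187 CPM, and the 4 mutants with the highest sums (FM4, FM5, MM2 and MM5) are named.

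*Mogat1* catalyses the same acylation as *Mogat2* and differed mainly by sex. It lies on the plus strand at chr1:78511060-78606964 (mm10). Its values were 146, 153, 198, 154 and 187 CPM in male controls and 111, 147, 122, 123 and 152 CPM in male mutants. In females they were 24.7, 21.6, 21.9, 27.8 and 36.2 CPM in controls and 22.7, 25.2, 17.2, 30.1 and 36.6 CPM in mutants. Every male lay above every female, and the mean was 6.34 times higher in male than in female controls (log2 fold change 2.67 ± 0.119 SE, edgeR adjusted p = 1.13e-08). In mutants the mean was 4.96 times higher in males (log2 fold change 2.33 ± 0.159 SE, edgeR adjusted p = 8.62e-06). The difference between males and females was positive in 6 of 6 groups of genotype and litter, from 2.05 to 2.72 on the log2 scale.

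Between male mutants and male controls, *Mogat1* had a log2 fold change of −0.35 (95% interval −0.54 to −0.16, edgeR adjusted p = 0.0268), and 3 of 5 mutants were below all controls. It did not pass the threshold of an adjusted p under 0.01 there, and DESeq2's Wald test gave an adjusted p of 0.00878. In females the log2 fold change was 0.02 (95% interval −0.26 to 0.29). The sex-by-genotype term for *Mogat1* was −0.34 (95% interval −0.70 to 0.02, edgeR unadjusted p = 0.0852, adjusted p = 1), so a difference between the sexes in the response was not shown.

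Levels of different genes were compared as CPM per kb of exon. On this scale *Mogat1* exceeded *Mogat2* by 2.47 ± 0.404 times (SD, n = 5) in female controls and by 17.1 ± 4.39 times in male controls. The ratio was 8.86 ± 2.78 in female mutants and 49.9 ± 12.04 in male mutants. *Mogat2* thus made up 29.1% of the pair in female controls, 11.1% in female mutants, 5.79% in male controls and 2.07% in their mutant counterparts. The largest share in a female mutant, 18.6% in FM1, was below the smallest in a female control, 24.6% in FC4. Because *Mogat2* was chosen by its fall in mutants, the differences in ratio and share between mutants and controls carry that choice. They are descriptions and add no separate result. The summed level of the pair was 114 ± 14.4 CPM per kb in male controls and 23.9 ± 5.25 in female controls. A part of each gene overlaps a gene on the opposite strand, 200 bases for *Mogat1* (*BC035947*) and 55 bases for *Mogat2* (*Gm45012*), and whether reads there were counted by strand is not given in the sources used here.

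**Figure D3:**
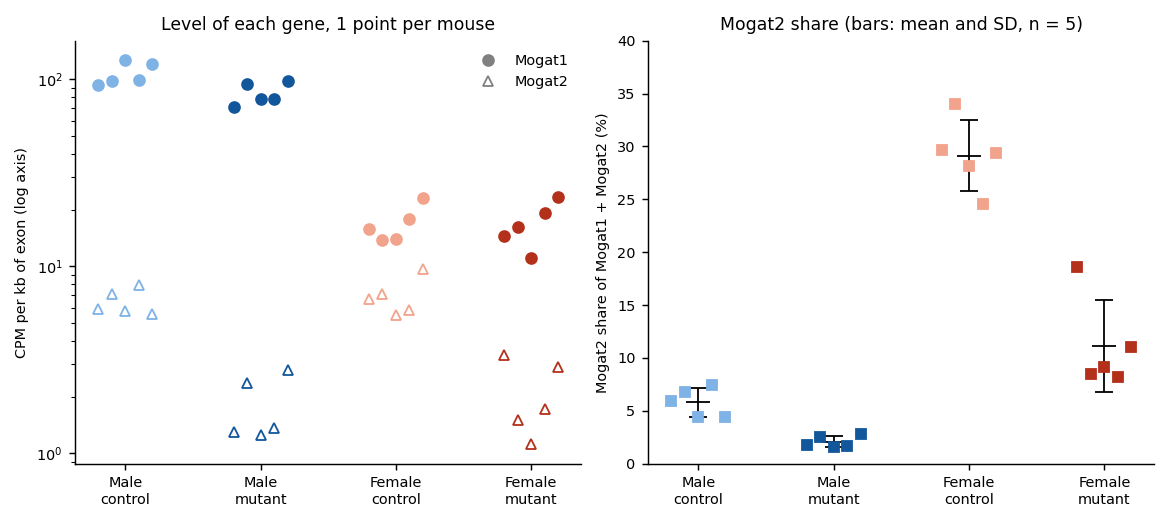
Left, CPM per kb of exon (log axis) of *Mogat1* (circles) and *Mogat2* (triangles) in every mouse. Right, the *Mogat2* share of the pair in percent, with mean and SD bars (n = 5 per group). The mean share is 29.1% in female controls, 11.1% in female mutants, 5.79% in male controls and 2.07% in male mutants.

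Of the 9 tested genes, 1 passed the threshold between mutants and controls when all 20 mice were fitted together, beside 15.9% of all 14191 genes (edgeR, adjusted p under 0.01). The 9 had a median log2 fold change of −0.17, against −0.01 for all genes tested. At an unadjusted p under 0.05, 4 of the 9 passed (*Dgat2*, *Pnpla2*, *Plin2* and *Plin5*), beside 37.7% of all genes. DESeq2's Wald test called 2 of the 9, *Pnpla2* and *Plin5*, beside 20.9% of the same genes. In males alone 0 of 9 passed in edgeR, beside 8.46% of all genes. There 4 of 9 were at an unadjusted p under 0.05, beside 33.7% of all genes, and DESeq2 called 2 of 9, beside 14.3%. In females alone 0 of 9 passed in edgeR, beside 0.637% of all genes. There 2 of 9 were at an unadjusted p under 0.05, beside 20.6% of all genes, and DESeq2 called 0 of 9, beside 6.43%.

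The gene that fell was *Pnpla2*, the adipose triglyceride lipase that removes a fatty acid from stored triglyceride. It was at 132, 131, 120, 113 and 120 CPM in male controls and at 90.5, 126, 95.02, 94.9 and 120 CPM in male mutants. In females it was at 129, 115, 117, 117 and 168 CPM in controls and at 98.0, 82.3, 111, 95.9 and 116 CPM in mutants. The groups overlapped, with 7 of 10 mutants below every control, and the 3 others (MM2, MM5 and FM5) within the control range. The log2 fold change was −0.26 ± 0.0696 SE (edgeR adjusted p = 0.00874), with −0.20 in males and −0.31 in females. The call is close to the threshold: without any 1 of 15 of the 20 mice the adjusted p rose above 0.01, to at most 0.0242 without MM1, and it was 0.0127 without the litter term. Some of these fits removed the same information. FC1 and FM1, for example, are the only females of litter A, so leaving out either removed that pair. By litter and sex, mutants were lower in 5 of 6 strata.

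*Plin5*, a droplet coat protein of tissues that oxidise fat, which also tethers droplets to mitochondria, had the largest fitted difference of the tested genes. In male controls it was at 6.38, 5.75, 5.47, 5.92 and 5.88 CPM and in male mutants at 3.06, 4.25, 3.21, 3.10 and 5.12 CPM, with no overlap. In female controls it was at 3.90, 4.36, 3.71, 2.27 and 8.02 CPM and in female mutants at 1.81, 2.64, 3.64, 0.514 and 4.87 CPM, with overlap. The log2 fold change was −0.66 (95% interval −1.08 to −0.24, edgeR adjusted p = 0.0275) with all mice, −0.65 (adjusted p = 0.0189) in males and −0.66 (adjusted p = 0.404) in females, and none of these passed. DESeq2 called it with all mice (adjusted p = 0.0078) and in males (0.00939). Without FM4, the lowest library for *Plin5*, the log2 fold change was −0.56 and the adjusted p 0.00802, and without FM3 it was −0.80 with an adjusted p of 0.00685. Mutants were lower in 6 of 6 strata of sex and litter.

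*Plin2*, the droplet coat protein found in most cells that store lipid, lay on the other side of 0. It was at 100.4, 97.5, 105, 86.8 and 98.0 CPM in male controls and at 135, 107, 101, 101 and 105 CPM in male mutants. In females it was at 76.5, 65.8, 69.1, 86.6 and 113 CPM in controls and at 97.9, 99.5, 80.6, 95.7 and 92.5 CPM in mutants. The mutants overlapped the controls in both sexes, and FC5 stood above all female mutants. The log2 fold change was 0.22 (95% interval 0.07 to 0.36, edgeR adjusted p = 0.036), which did not pass. It passed without FC5 (0.27, adjusted p = 0.00548) and without FM5 (0.28, adjusted p = 0.00539). FC5 and FM5 are the only females of litter C, so leaving out either removed the same pair from the comparison.

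**Figure D4:**
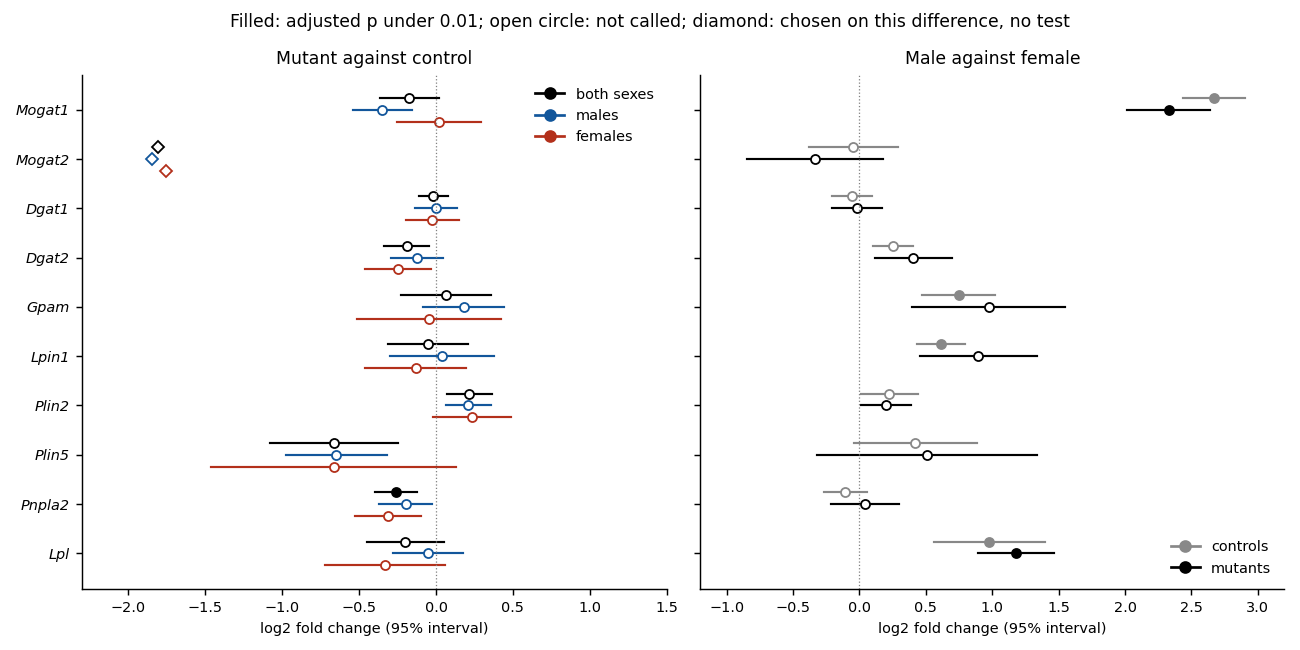
Fitted log2 fold changes (horizontal axes) with approximate 95% intervals of the 10 genes, mutant against control on the left and male against female on the right. Filled circles passed an adjusted p under 0.01, open circles did not, and diamonds mark *Mogat2* where it was chosen on the difference shown. *Pnpla2* with all mice is the only filled circle on the left, and *Mogat1* and *Lpl* are filled in both genotypes on the right.

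The remaining genes did not pass between mutants and controls. *Dgat1*, which completes triglyceride synthesis at the endoplasmic reticulum, was between 26.4 and 33.8 CPM in mutants and between 27.3 and 36.9 CPM in controls. Its log2 fold change was −0.02 with a 95% interval of −0.11 to 0.08. *Dgat2*, which works with droplets and newly made fatty acids, was between 106 and 201 CPM in mutants and between 135 and 208 CPM in controls (log2 fold change −0.19, 95% interval −0.34 to −0.04, edgeR adjusted p = 0.0686). *Dgat2* and *Mogat2* are neighbours on chromosome 7, with 36.4 kb between them and no gene in between, and their log2 fold changes were −0.19 and −1.81.

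*Gpam*, the mitochondrial acyltransferase that opens the glycerol phosphate route, had a log2 fold change of 0.06 (95% interval −0.23 to 0.36). *Lpin1*, the phosphatase that makes diacylglycerol, had one of −0.05 (−0.31 to 0.21), and *Lpl* one of −0.20 (−0.45 to 0.05). These intervals include 0, and each also includes differences nearly as large as or larger than that of *Pnpla2*. Female mutants were spread widely for *Gpam* (36.1, 37.1, 79.1, 98.1 and 55.6 CPM in FM1 to FM5) and *Lpin1* (42.8, 47.5, 48.0, 81.2 and 76.5 CPM). The female controls were closer together, at 54.8 to 70.7 CPM for *Gpam* and 60.4 to 71.6 CPM for *Lpin1*.

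Markers of fat cells were low and uneven. The summed CPM of 6 adipocyte markers ranged from 0.45 to 54.7 in male controls, 0.34 to 52.9 in male mutants, 0.491 to 132 in female controls and 0.6 to 441 in female mutants. The highest sums were in FM3 (441 CPM), FC3 (132 CPM) and FC5 (114 CPM). FC5 had the highest level in its group for 7 of the 10 genes, FC3 for 1 and FM3 for 0, and FM3 had the lowest *Lpl* of all mice. Whether fat attached to the kidney moved any of these genes was not tested.

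Males and females were then compared within each genotype. In controls 4 of the 10 genes passed, all higher in males, beside 17.8% of all genes in either direction and 8.75% higher in males. In mutants 2 of the 10 passed, both higher in males, beside 5.42% in either direction and 3.59% higher in males. *Mogat1* and *Lpl* were called in both genotypes, and *Lpin1* and *Gpam* in controls alone, a split that depended on the fit.

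*Lpl*, lipoprotein lipase, had the highest level per kb of the set in each group. It was at 1542, 1690, 2331, 1814 and 2509 CPM in male controls and at 1080, 622, 921, 1432 and 1040 CPM in female controls. Male mutants were at 2008, 1880, 1444, 1584 and 2471 CPM and female mutants at 831, 854, 595, 820 and 867 CPM. Every male lay above every female, with a log2 fold change of 0.98 ± 0.213 SE in controls (edgeR adjusted p = 0.00454) and 1.18 ± 0.147 SE in mutants (adjusted p = 6.13e-04). The call in controls was lost without FC1, FC5, MC4 or MC5, each left out alone, with adjusted p-values of 0.0145 to 0.0356. Each of these was the only control of its sex in its litter, so leaving it out removed that litter from the comparison.

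*Lpin1* was at 116, 115, 86.3, 93.6 and 98.5 CPM in male controls, above all female controls. The log2 fold change was 0.62 ± 0.0932 SE in controls (edgeR adjusted p = 4.06e-04) and 0.89 ± 0.226 SE in mutants (adjusted p = 0.0248). *Gpam* was at 92.4, 91.1, 62.6, 115 and 116 CPM in male controls, and all but MC3 lay above all female controls. Its log2 fold change was 0.75 ± 0.141 SE in controls (edgeR adjusted p = 0.00183) and 0.97 ± 0.293 SE in mutants (adjusted p = 0.0499). In 1 fit over all 20 mice the calls changed places: *Lpin1* (adjusted p = 0.0187) and *Gpam* (0.0282) did not pass in controls, and both passed in mutants (0.00231 and 0.00361). DESeq2's Wald test also called both in mutants (adjusted p = 0.00108 and 0.00397). Both genes were higher in males in 6 of 6 groups of genotype and litter. The call of *Gpam* in controls was lost without MC4 (adjusted p = 0.0326), and in mutants *Lpin1* passed without FM4 (log2 fold change 1.05, adjusted p = 0.00558). MC4 was the only male control of litter B, so leaving it out removed that litter from the comparison.

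*Mogat2* did not pass between the sexes. Its male-to-female log2 fold change was −0.05 (95% interval −0.38 to 0.29, edgeR adjusted p = 0.862) in controls and −0.33 (−0.85 to 0.18, adjusted p = 0.414) in mutants. *Dgat2* had 0.25 (adjusted p = 0.0283) in controls and 0.41 (adjusted p = 0.0945) in mutants. *Dgat1*, *Pnpla2*, *Plin2* and *Plin5* had values from −0.11 to 0.42 in controls and from −0.02 to 0.51 in mutants, and none passed.

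The response to *Pkd2* loss was compared between the sexes by the sex-by-genotype term. *Pkd2* itself had a log2 fold change of −1.32 in males (edgeR adjusted p = 2.18e-05) and −0.80 in females (adjusted p = 0.0276, not called). Its own term was −0.50 (interval −0.92 to −0.08, edgeR unadjusted p = 0.0328), which did not pass after adjustment. An equal fall of *Pkd2* RNA in the sexes was therefore not shown in these kidneys, and its bearing on the terms below was not tested. In mice induced and taken earlier, the paper reports a similar loss of the protein and comparable Cre reporter signal in both sexes. In edgeR 0 of the 9 tested genes passed and 0 were at an unadjusted p under 0.05, beside 0% of all genes called and 618 genes (4.17%) at an unadjusted p under 0.05. DESeq2 called 18 genes (0.121%), none of them in the set. The terms of the 9 genes ranged from −0.34 for *Mogat1* to 0.31 for *Lpl*, with intervals that included 0. The term of *Mogat2*, a description only, was −0.07.

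Per kb of exon, the order of mean levels in male controls was *Lpl* (189 ± 40.1 CPM per kb, SD, n = 5), *Mogat1* (107 ± 14.97), *Dgat2* (61.7 ± 4.30), *Pnpla2* (40.7 ± 2.71), *Plin2* (27.8 ± 1.93), *Gpam* (14.3 ± 3.26), *Lpin1* (10.5 ± 1.36), *Dgat1* (9.26 ± 0.337), *Mogat2* (6.47 ± 1.01) and *Plin5* (2.82 ± 0.158). The ranges of mean ± SD overlapped for *Gpam* and *Lpin1*, and for *Lpin1* and *Dgat1*. The genes were not compared within each mouse, so the group means do not resolve the order of these. The order also depends on the length used, the union of all annotated exons of a gene. In female controls the mean of *Mogat1* (17.0 ± 3.85) stood behind those of *Dgat2* (50.7 ± 7.11), *Pnpla2* (42.8 ± 7.42) and *Plin2* (23.4 ± 5.42). The ranges of mean ± SD of *Mogat1* and *Plin2* overlapped there. In male mutants *Mogat2* (1.82 ± 0.719) and *Plin5* (1.80 ± 0.435) were at about the same level.

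KBW was computed as the kidney weight in the labels as a percentage of body weight, and the labels do not say whether that weight is of 1 kidney or both. The study's own KBW uses the weight of a single kidney. The value was 1.68 ± 0.338 (SD, n = 5) in male mutants, 1.18 ± 0.261 in female mutants, 0.692 ± 0.117 in male controls and 0.615 ± 0.0448 in female controls. Across the 10 mutants, 0 of the 10 genes had an adjusted p under 0.05 for a correlation of log2 CPM with KBW (permutation tests over 10 relations). The largest were those of *Plin2* (Pearson r = 0.61, permutation p = 0.0621, adjusted p = 0.345, Spearman rho = 0.54, permutation p = 0.114) and *Lpl* (r = 0.60, permutation p = 0.069, adjusted p = 0.345, rho = 0.53, permutation p = 0.125). Without the 2 mice farthest from the median KBW, FM4 and MM1, these r were 0.19 and 0.45, so that of *Plin2* rests on those mice. For *Mogat2* r was −0.38 (permutation p = 0.284, adjusted p = 0.552), rho −0.50 (permutation p = 0.142), and r without FM4 and MM1 −0.39. Males had the larger kidneys and the higher *Mogat1* and *Lpl*, and 5 mice per sex are too few for an r within each sex. The pooled r was 0.54 for *Mogat1*, 0.60 for *Lpl*, 0.29 for *Gpam*, 0.09 for *Lpin1* and 0.03 for *Dgat2*. With the mean of each sex subtracted, r was −0.70, −0.14, −0.40, −0.85 and −0.70, respectively, so that the sign turned. For *Plin2* it was then 0.29. These values are descriptions.

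From a list of 72 other genes of the pathway, written with earlier results of these data known, 62 could be tested with all 20 mice. Of these 14 passed, 5 higher and 9 lower in mutants, beside 15.9% of all genes (1421 higher and 831 lower of 14191). The same background stands beside the counts of the single lists below. The median log2 fold change of the 62 was −0.08, against −0.01 for all genes tested. Around *Lpl*, the gene for the capillary anchor *Gpihbp1* rose (log2 fold change 0.96 ± 0.113 SE, edgeR adjusted p = 1.25e-05), from 9.40 to 18.5 CPM in male and from 6.89 to 13.2 CPM in female means. *Lmf1*, needed for folding of the lipase, fell (−0.27, adjusted p = 0.0024). These were 2 of 11 tested in the list of lipoprotein lipase and lipoproteins.

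Among 8 tested lipolysis genes, *Lipa*, the lysosomal acid lipase, rose (0.54, edgeR adjusted p = 8.08e-05). *Abhd6*, a monoacylglycerol hydrolase, fell (−0.34, adjusted p = 4.32e-04), and so did *G0s2*, which encodes the inhibitor of the lipase made from *Pnpla2* (−0.51, adjusted p = 7.29e-04). *G0s2* went from 45.0 ± 7.00 to 30.4 ± 5.47 CPM (SD, n = 5) in males and from 29.1 ± 7.89 to 19.8 ± 3.08 CPM in females. Thus the lipase and its inhibitor were both lower in mutants. *Lipa* is also abundant in macrophages, whose 6 markers all rose (median log2 fold change 1.56), and the part of those cells in the rise of *Lipa* was not tested.

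Of 11 tested droplet genes, *Hsd17b11*, a droplet-bound dehydrogenase, rose (0.61, edgeR adjusted p = 2.05e-04). It was also higher in males, with means of 870 CPM in male controls and 195 CPM in female controls (log2 fold change 2.23, adjusted p = 6.82e-09). Of 8 tested synthesis genes, *Agpat3*, which acylates lysophosphatidate, fell (−0.26, adjusted p = 0.00925).

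Of 12 genes of fatty acid uptake and activation, 4 passed, beside 15.9% of all genes. The fatty acid carriers *Fabp5* (0.76, edgeR adjusted p = 6.71e-04) and *Fabp1* (0.89, adjusted p = 0.00695) rose. The transporter *Slc27a1* (−0.38, adjusted p = 0.00122) and the acyl-CoA synthetase *Acsl1* (−0.37, adjusted p = 0.00289) fell. *Fabp1* was low in males, with means of 0.596 CPM in controls and 1.16 CPM in mutants, against 5.27 and 10.7 CPM in females. Its medians in controls and mutants were 0.649 and 0.623 CPM in males, and 4.85 and 6.13 CPM in females. The highest male mutant was at 3.07 CPM and the highest female mutant at 21.4 CPM.

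Of 12 regulators, 3 passed, all lower in mutants, beside 15.9% of all genes in either direction. *Ppargc1b*, a coactivator of mitochondrial genes, had a log2 fold change of −0.50 (edgeR adjusted p = 5.88e-04), the oxysterol receptor gene *Nr1h3* one of −0.38 (adjusted p = 0.00115) and *Cebpa* one of −0.29 (adjusted p = 0.00775). In males alone 7 of 60 tested pathway genes passed, beside 8.46% of all genes. In females alone 0 of 62 passed, beside 0.637% of all genes, and 18 of 62 were at an unadjusted p under 0.05, beside 20.6% of all genes. The calls of *Fabp1*, *Cebpa* and *Agpat3* were lost without the litter term, and without 11, 15 and 14 of the 20 single mice, respectively.

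**Figure D5:**
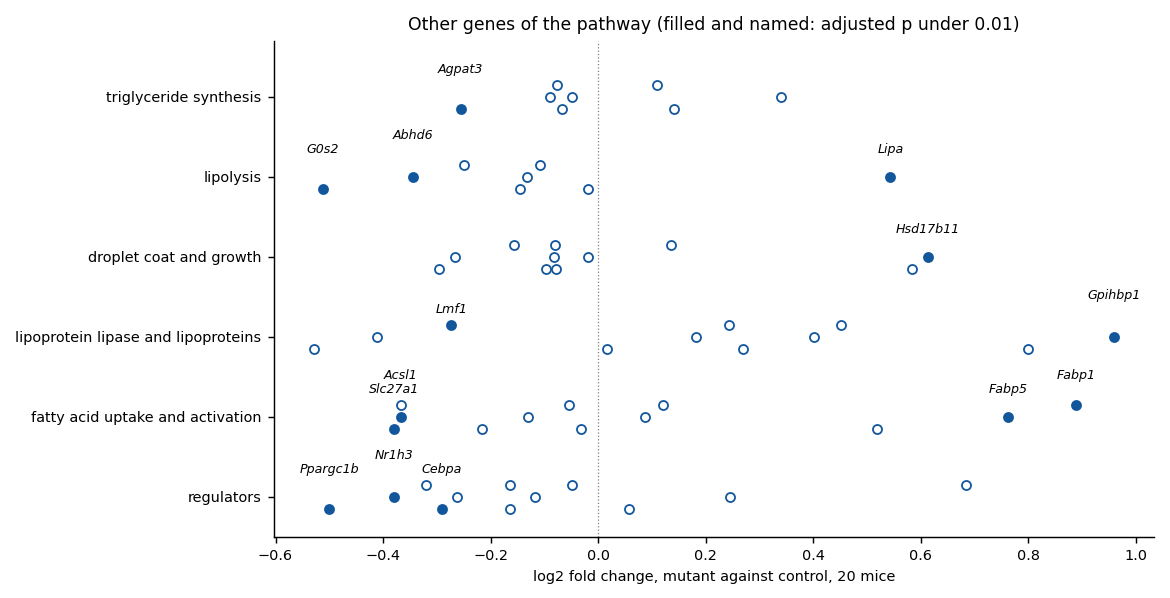
Fitted log2 fold changes (horizontal axis), mutant against control with all 20 mice, of the 62 tested genes in 6 lists (rows). Filled and named points passed an adjusted p under 0.01; *Gpihbp1* at 0.96 is the highest of these and *G0s2* at −0.51 the lowest.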

How the data were processed

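Total RNA of whole kidneys from 20 mice was sequenced, 1 library per mouse. The authors trimmed reads with fastp 0.23.2, aligned them to mm10 with STAR 2.7.10b and deposited whole-number counts per gene symbol without normalization. The counting tool, annotation and strandedness are not given in the sources used here, which bears on overlapping genes.

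Here, counts were analyzed in R 4.3.3 with edgeR 4.0.16: TMM normalization, a low-count filter by filterByExpr, and quasi-likelihood F tests with Benjamini-Hochberg adjustment over all genes tested, called at an adjusted p under 0.01. Litter was a covariate within a sex or genotype, and the combinations of sex and litter (6) were covariates in fits over all mice. Litter A held 3 of the 5 male controls. CPM used TMM library sizes, and log2 CPM a prior count of 2. Standard errors come from the fit, and 95% intervals are 1.96 standard errors. Exon lengths for CPM per kb are the union of all GENCODE exons of a gene, from 1558 bases for *Mogat1* to 10478 for *Lpl*. A gene whose main transcript is shorter than this union gets a lower value than per kb of that transcript. Correlations with KBW used two-sided permutation tests with 100000 resamples. The procedure was tested on simulated data.

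All 10 genes are named. Other pathway genes are named where called with all mice, at most 15 by adjusted p, as are the 5 genes most like *Mogat2*. The genes and lists were chosen with earlier results of these data known. The alternatives were DESeq2 1.42.0 size factors, its Wald test, other low-count filters (none, or a minimum of 10 counts per mouse), fits without litter, 1 fit over all 20 mice, a prior count of 0.5 for KBW, and leaving out each mouse. Some mice were the only ones of their group in a litter. With litter in the fit, leaving out such a mouse removed its litter partners from the comparison as well. Counts of these fits therefore include some that removed the same information. Numbers of mice here are not those of the study.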

Additional observations from a re-analysis of the deposited data

Results flagged for a closer look

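Within each of the 4 groups of 5 mice, the log2 CPM of each of the 10 genes was examined for a single mouse far from the others (40 group and gene combinations). A mouse was marked where the gap to its nearest neighbor, divided by the range of the group, exceeded Dixon's 95% critical value of 0.71. Chance marks about 1 in 20 such groups. *Dgat1* was marked in female controls, where FC5 was at 36.9 CPM and the other 4 between 28.1 and 29.7 CPM (0.795). *Plin2* was marked in male mutants, where MM1 was at 135 CPM and the others between 101 and 107 CPM (0.798). *Lpl* was marked in female mutants, where FM3 was at 595 CPM and the others between 820 and 867 CPM (0.851).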

How the results depend on the processing

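The fall of *Pnpla2* with all mice lay near the threshold. Of the 9 tested genes, DESeq2 size factors, a minimum of 10 counts in each mouse and fits without litter each left 0 called, DESeq2's Wald test called 2, and leaving out single mice gave 0 to 2. *Plin5*, with 6 counts in FM4, was not tested under the minimum of 10 counts. The Wald test called 2 in males. For sex, 1 fit over all 20 mice called 2 of 10 in controls (not *Lpin1* and *Gpam*) and 4 in mutants (these 2 added), the Wald test called the same 4 in mutants, and leaving out single mice gave 2 to 4 in controls (2 without MC4) and 2 to 3 in mutants (3 without FM4). *Mogat1* kept its direction and its calls between the sexes under each alternative, and *Mogat2* was lower in mutants under each.

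Counts over all genes moved more. In males the Wald test called 2001 genes, and leaving out single mice gave 187 (without MC4) to 1863 (without MM2). In females the Wald test called 928, no filter 230, fits without litter 172 and 1 fit over all mice 823, and leaving out single mice gave 3 (without FC2) to 866 (without FM4). Between male and female mutants the Wald test called 1959 and 1 fit over all mice 2332, and single mice left out gave 246 (without FM1) to 1330 (without FM4). With single mice left out the counts were 1223 (without MC4) to 2659 between male and female controls and 1656 to 2994 in the comparison of all mice. MC4 was the only male control of litter B and FM1 the only female mutant of litter A. In the fits within a sex or genotype, leaving out either removed that litter from the comparison. The sex-by-genotype term gave 18 with the Wald test, 2 with no filter, 1 with the minimum of 10 counts and 0 to 3 with single mice left out.

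Values near 0 changed sign, and the cause was not tested. *Dgat1* in males was 0.0001 with DESeq2 size factors, 0.0004 with no filter, 0.0034 with the minimum of 10 counts, 0.0134 without litter and 0.0236 in 1 fit over all mice. *Mogat1* in females was −0.0031 with no filter. The sex-by-genotype term of *Plin2* was −0.0167 with DESeq2 size factors, −0.0165 with the Wald test, −0.0049 with the minimum of 10 counts and −0.016 without litter.

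With single mice left out, log2 fold changes with all mice were −0.1385 to 0.0286 for *Lpin1* and −0.0179 to 0.1568 for *Gpam*. In males they were −0.0248 to 0.0354 for *Dgat1*, −0.1333 to 0.2455 for *Lpin1* and −0.1172 to 0.035 for *Lpl*. In females they were −0.083 to 0.0993 for *Mogat1*, −0.0515 to 0.0019 for *Dgat1*, −0.299 to 0.0147 for *Lpin1* and −0.2264 to 0.1384 for *Gpam*. Between the sexes in controls they were −0.3365 to 0.1785 for *Mogat2*, −0.0984 to 0.0138 for *Dgat1* and −0.1739 to 0.0064 for *Pnpla2*, and in mutants −0.0905 to 0.0495 for *Dgat1* and −0.0305 to 0.0876 for *Pnpla2*. The sex-by-genotype terms were −0.3599 to 0.2428 for *Mogat2*, −0.1264 to 0.0659 for *Plin2* and −0.1691 to 0.3458 for *Plin5*. The r with KBW was −0.0904 to 0.1587 for *Dgat2*, −0.343 to 0.0153 for *Pnpla2*, −0.1214 (without FM4) to 0.621 for *Plin5* and −0.0183 to 0.247 for *Lpin1*.

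No paired analysis was possible because the labels give no replicate number that groups share, and the numbers used here follow the order of the samples. The litter, which the labels do give, was already a covariate. *Plin5* rests on few counts, down to 6 in FM4.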

Other observations

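The mice of litter C, 1 in each group, were often the highest of their group for these genes. FC5 was the highest female control for 7 of the 10 genes (*Mogat1*, *Mogat2*, *Dgat1*, *Dgat2*, *Pnpla2*, *Plin2* and *Plin5*), and FM5 the highest female mutant for 6 (*Mogat1*, *Dgat1*, *Dgat2*, *Pnpla2*, *Plin5* and *Lpl*). MM5 was the highest male mutant for 5 and MC5 the highest male control for 3. At the other end, MM1, which had the highest KBW (2.15%), was the lowest male mutant for 7 of the 10 genes, and FM3, with the highest KBW of the female mutants (1.46%), was the lowest female mutant for 5. MM1 was also the highest male mutant for *Plin2*. These counts were made after the values were seen, and with 1 mouse of litter C in each group litter and mouse cannot be told apart.

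After subtraction of the group means, the genes that varied most alike over the 20 mice were *Mogat1* and *Dgat2* (Pearson r = 0.81), *Dgat2* and *Lpin1* (0.77), and *Dgat2* and *Pnpla2* (0.73). *Plin2* and *Gpam* varied in opposite directions (r = −0.43). The mice share litters, and the r values are descriptions without a test.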
